A study of Mus musculus with 39 samples.

Results

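Serotonin (5-hydroxytryptamine) acts on a family of receptors, and 10 genes of that family were described here across 2 brain regions and 2 genotypes: Htr1a, Htr1b, Htr1d, Htr2a, Htr2c, Htr3a, Htr4, Htr5a, Htr6 and Htr7. They were taken by symbol from 51826 gene rows, and all 10 passed the filter on low counts in every comparison. RNA came from adult C57BL/6J mice aged 8 to 12 weeks, either wild type (WT) or carrying 1 gene-trap allele of the transcription cofactor LMO4 (Lmo4gt/+), in a series on alcohol drinking and reward. Frozen sections 300 µm thick were punched at the basolateral amygdala (BLA) or at the nucleus accumbens (NAc), and polyA RNA was sequenced. There were 11 WT and 9 Lmo4gt/+ BLA libraries, and 10 WT and 9 Lmo4gt/+ NAc libraries, from 20 mice of which 19 gave both regions. The labels name no driver or cell type for the allele, and each punch mixes neurons, glia and vessels. The labels give no sex, litter or batch, and each library carries 1 mouse number.

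All members but Htr3a are receptors that signal through G proteins. The Htr1 and Htr5 receptors couple to inhibitory Gi/o proteins, which lower cyclic AMP and open potassium channels, and Htr2 receptors couple to Gq and phospholipase C. Htr4, Htr6 and Htr7 couple to Gs and raise cyclic AMP, while Htr3a encodes a subunit of the one serotonin-gated ion channel. Serotonin itself comes from axons of the raphe nuclei of the brainstem, which lie outside both regions. The BLA is rich in glutamatergic projection neurons, and most neurons of the NAc are GABAergic medium spiny neurons.

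Depth was 21255934 to 51021670 gene reads per library. Levels are given as CPM, counts scaled to a common total of gene reads. The trapped gene was lower in the Lmo4gt/+ groups: Lmo4 averaged 160 ± 9.67 CPM (SD, n = 11) in WT and 88.5 ± 12.7 (n = 9) in Lmo4gt/+ BLA, and 90 ± 11.6 (n = 10) and 55.1 ± 9.58 (n = 9) in NAc. NAc library 122 is Lmo4gt/+ by title and WT by its genotype field, and was kept as Lmo4gt/+. The summed markers of medium spiny neurons (9 genes) were at 524 to 1210 CPM in BLA and 3510 to 7050 in NAc. Markers of glutamatergic projection neurons (8 genes) were at 1840 to 2430 CPM in BLA and 4.45 to 1250 in NAc. Some libraries stood apart: BLA libraries 129, 149, 156 and 159 had high medium spiny neuron markers, and NAc libraries 122 and 134 had high projection neuron markers (795 and 1250 CPM). NAc library 149 had Pvalb and Sst interneuron markers at 18 CPM, where every other NAc library had at least 86.9. Region and genotype results of the members that change without these libraries are given both ways. BLA libraries 127 (Lmo4gt/+) and 151 (WT) had high choroid plexus markers, at 640 and 177 CPM against group medians of 9.4 and 11.8. They were left out only singly. Markers of serotonin neurons (Tph2, Slc6a4, Fev and Slc18a2) summed to at most 5.54 CPM in any library, and Fev had reads in 1 of 39 libraries.

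The DNA just before the start is shown for 3 of the members that differed most between the regions. Such sequence (RefSeq, GRCm38.p6) was examined for 8 of the 10 members, and Htr3a and Htr4 were not examined. The 250 bases before the start are printed 5′ to 3′ for Htr1b (chr9:81633833-81634082, minus strand) and Htr1d (chr4:136423274-136423523, plus strand), both higher in NAc. Htr5a (chr5:27841697-27841946, plus strand) was lower in NAc. Capitals mark matches, on either strand, to the CCAAT box (CCAAT) and the GC box (GGGCGG).
Htr1b: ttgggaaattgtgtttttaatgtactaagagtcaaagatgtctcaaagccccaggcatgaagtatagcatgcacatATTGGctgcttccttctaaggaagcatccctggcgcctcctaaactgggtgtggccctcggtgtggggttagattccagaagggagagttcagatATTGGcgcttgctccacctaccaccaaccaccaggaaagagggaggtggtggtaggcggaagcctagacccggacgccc
Htr1d: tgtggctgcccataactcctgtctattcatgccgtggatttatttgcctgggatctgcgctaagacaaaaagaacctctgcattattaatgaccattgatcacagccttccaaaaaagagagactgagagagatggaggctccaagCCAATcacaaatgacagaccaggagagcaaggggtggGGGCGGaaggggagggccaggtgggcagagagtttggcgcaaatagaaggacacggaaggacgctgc
Htr5a: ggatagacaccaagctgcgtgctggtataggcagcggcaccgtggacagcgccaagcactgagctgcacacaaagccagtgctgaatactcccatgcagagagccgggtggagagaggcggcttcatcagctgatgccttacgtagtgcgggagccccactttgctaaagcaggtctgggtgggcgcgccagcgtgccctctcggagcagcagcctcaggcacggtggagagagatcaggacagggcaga
Htr1b held 2 copies of CCAAT in the reverse direction (ATTGG), 174 and 79 bases before the start. The Htr1d window printed held 1 CCAAT (104 bases before) and 1 GGGCGG (67 bases before), and Htr5a held neither. Another listed start of Htr1d (chr4:136424362-136424611, not printed) held 0 CCAAT and 3 GGGCGG (245, 99 and 79 bases before). Over all 10 start sites listed for the 8 members, CCAAT occurred in 3, GGGCGG in 5 and the TATA box TATAAA in 0. The shares among 32851 promoter windows of the same length were 33.8%, 32.7% and 12.4%. A match is a description of letters only.

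Htr2c took most of the receptor reads in both regions, and the NAc differed from the BLA mainly by a large share of Htr1b. The 10 members summed to 299 ± 27.2 CPM (SD, n = 11) in WT BLA, 306 ± 21.3 (n = 9) in Lmo4gt/+ BLA, 357 ± 43.2 (n = 10) in WT NAc and 356 ± 42.3 (n = 9) in Lmo4gt/+ NAc. Htr2c, a Gq-coupled receptor known for RNA editing of its transcript and for restraining dopamine release, held 64.6% ± 3.5 of these reads in WT BLA and 51.8% ± 9.08 in WT NAc. Htr1b, which acts on axon terminals to hold back transmitter release, held 7.99% ± 2.08 in WT BLA and 25.9% ± 5.67 in WT NAc. The Lmo4gt/+ shares were close to these, with Htr2c at 65.3% ± 2.97 and 54.8% ± 3.83 and Htr1b at 7.85% ± 1.72 and 25.1% ± 5.72. By coupling, Gi/o receptors (Htr1a, Htr1b, Htr1d and Htr5a) summed to 63.3 ± 6.45 CPM in WT BLA and 126 ± 21.5 in WT NAc. Gq receptors were at 207 ± 25.6 and 205 ± 39.2 CPM, Gs receptors at 20.4 ± 3.2 and 24.8 ± 5.53, and the channel subunit at 7.7 ± 1.68 and 2.04 ± 0.703. These shares count reads, which rise with transcript length.

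**Figure D1:**
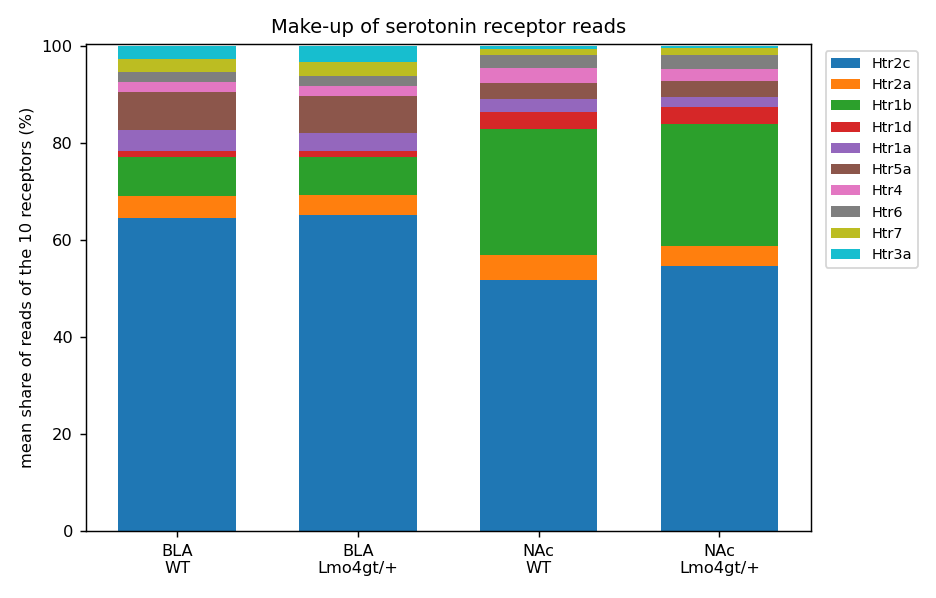
Mean share (%) of the reads of the 10 serotonin receptor genes held by each gene, stacked to 100, for WT and Lmo4gt/+ libraries of BLA (n = 11 and 9) and NAc (n = 10 and 9). Htr2c is the largest block in all 4 groups, and the Htr1b block grows from 7.99% in WT BLA to 25.9% in WT NAc.

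Levels of different genes were compared per length, as reads per kilobase of annotated exon after the same scaling. In WT BLA, Htr2c (20.7 ± 2.59, n = 11) and Htr1b (18.5 ± 4.34) led on this per-length scale. Htr2c was above Htr1b in 8 of 11 libraries, within the spread of their difference. Htr2a (4.68 ± 1.02), Htr5a (4.13 ± 0.286) and Htr3a (3.7 ± 0.808) followed, then Htr1a, Htr7 and Htr6 between 2.43 and 2.94. Htr4 (1.38 ± 0.161) and Htr1d (1.13 ± 0.454) came last, and those neighbours did not differ beyond their spread. In WT NAc, Htr1b came first (72.4 ± 18.4, n = 10) above Htr2c (20.1 ± 4.6) in 10 of 10 libraries, and Htr2c was above Htr2a in 9 of 10. Htr2a (5.97 ± 2.21), Htr1d (4.07 ± 0.56) and Htr6 (3.89 ± 0.675) followed, where neither Htr2a and Htr1d nor Htr1d and Htr6 differed beyond their spread, and Htr3a was last (0.98 ± 0.338). The Lmo4gt/+ libraries had the same first and second gene in each region, Htr2c and Htr1b at 21.5 and 18.8 in BLA and Htr1b and Htr2c at 71.1 and 20.8 in NAc. The place of Htr1b rests on its length, which is 1273 bases in the annotation used (GENCODE vM1) against 9328 for Htr2c. With a counted length of 4593 bases Htr1b would equal Htr2c in WT NAc, or of 2404 bases with the longest Htr2c transcript. The annotation used in counting is not stated. Of its 51826 gene rows, 32708 could be given a symbol. Its gene set and gene lengths may differ from those of the annotation used here. The order of these genes in NAc depends on those lengths.

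Of the family's other genes, Htr1f (Gi/o-coupled) was measured at 7.81 ± 1.66 CPM in WT BLA and 4.39 ± 1.2 in WT NAc. Htr5b was scarce, at 0.726 ± 0.394 CPM in WT BLA and 0.0854 ± 0.0772 in WT NAc. Htr2b had 16 reads and Htr3b 21 reads over all 39 libraries. Htr3b encodes the partner subunit of Htr3a, and was near absent beside Htr3a at these depths.

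**Figure D2:**
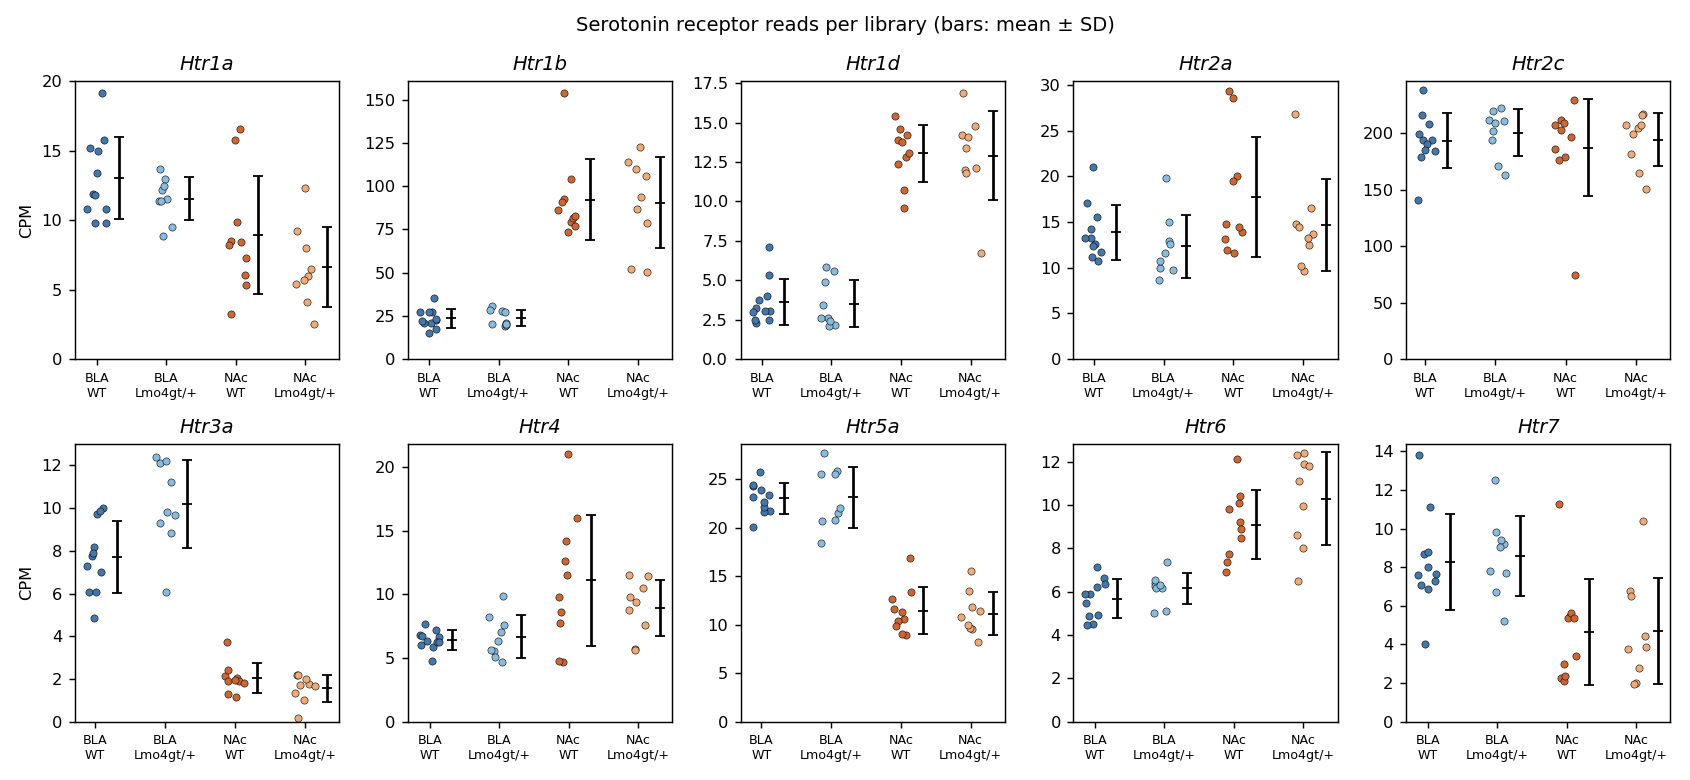
CPM of each serotonin receptor gene in every library (points) of WT and Lmo4gt/+ BLA and NAc, with the group mean and SD beside them; each panel has its own linear axis from 0. Htr1b, Htr1d, Htr3a and Htr5a separate the regions without overlap within each genotype, while the genotypes overlap in every panel.

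The regions were compared within mice, WT and Lmo4gt/+ apart, with the mouse as a block. In WT mice (n = 10), 4 members were higher in NAc (Htr1b, Htr1d, Htr6 and Htr4) and 4 were lower (Htr3a, Htr5a, Htr7 and Htr1a). Htr2a and Htr2c did not pass the threshold. This count stands against a background in which 59.6% of 16887 genes were called, 31.1% higher and 28.5% lower, so a count of this size is not particular to the receptors. In Lmo4gt/+ mice (n = 9), 3 members were higher and 4 lower, with 52.7% of 17026 genes called, 26.2% higher and 26.4% lower. The sign was the same in both genotypes for 10 of 10 members (89.2% of 16680 genes tested in both), and 7 were called in both. Over all genes, 79.4% of the WT calls and 89.1% of the Lmo4gt/+ calls were also called, with the same sign, in the other genotype. In bulk punches, fewer cells of a type and less RNA per cell cannot be told apart. Adjusted p-values of single genes come from edgeR's quasi-likelihood test with Benjamini-Hochberg adjustment over every gene tested, and the threshold was 0.05. Log2 fold changes are given ± their standard error.

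Htr1b (chr9:81524950-81526222, minus strand, NCBIM37) was the Gi/o receptor with the most reads in NAc. In WT mice it ran from 15 through a median of 22.8 to 35.3 CPM in BLA (n = 11), and from 73.6 through 84.5 to 154 in NAc (n = 10). The Lmo4gt/+ values ran from 19.3 through 20.7 to 30.7 CPM in BLA and from 50.3 through 93.8 to 123 in NAc (n = 9 each). The lowest NAc library lay above the highest BLA library in each genotype. The regions did not overlap, in either direction, for 20.1% of all genes tested in WT and 20.4% in Lmo4gt/+. The log2 fold change was 1.90 ± 0.13 in WT mice (3.74-fold, adjusted p = 1.12e-07, higher in 10 of 10 mice). The Lmo4gt/+ value was 1.82 ± 0.19 (adjusted p = 9.65e-06, 9 of 9 mice). The annotated exon overlaps that of an antisense noncoding gene, D430036J16Rik, and no source says whether strand was used in counting, so the pair's reads cannot be told apart.

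Htr1d, another Gi/o receptor of axon terminals, was scarce in BLA and about as much higher in NAc as Htr1b. Its levels in WT mice were 2.26 to 7.13 CPM in BLA (median 3.07) and 9.56 to 15.4 in NAc (median 13.4). In Lmo4gt/+ mice they were 2.11 to 5.82 CPM (median 2.63) and 6.71 to 16.9 (median 13.4). The regions did not overlap in either genotype, and the log2 fold change was 1.80 ± 0.15 in WT (adjusted p = 3.92e-08) and 1.87 ± 0.19 in Lmo4gt/+ (adjusted p = 8.7e-07). Every mouse with both regions had the higher level in NAc.

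Htr1a, the Gi/o receptor found on cell bodies and dendrites, went the other way. In WT mice it ran from 9.79 through 11.9 to 19.2 CPM in BLA and from 3.24 through 8.33 to 16.6 in NAc. In Lmo4gt/+ mice the values were 8.88, 11.5 and 13.7 CPM in BLA and 2.54, 5.98 and 12.3 in NAc. The ranges overlapped, and NAc was higher in 2 of 10 WT and 2 of 9 Lmo4gt/+ mice. Htr1a fell by 0.74 ± 0.20 on the log2 scale from BLA to NAc in WT (adjusted p = 0.00558) and by 0.97 ± 0.18 in Lmo4gt/+ (adjusted p = 0.000468). Within NAc it varied widely between libraries, with a coefficient of variation of 47.8% in WT against 22.7% in WT BLA.

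Htr5a, a Gi/o-coupled receptor of which mice have the pair Htr5a and Htr5b, varied least of the members in WT BLA, with a coefficient of variation of 6.93%. It ran from 20.1 through 23.2 to 25.8 CPM in WT BLA and from 8.93 through 11 to 16.9 in WT NAc. Levels in Lmo4gt/+ mice ran from 18.4 through 22 to 27.7 CPM in BLA and from 8.19 through 10.8 to 15.5 in NAc. The regions did not overlap in either genotype. Htr5a fell from BLA to NAc by 1.11 ± 0.08 on the log2 scale in WT (adjusted p = 3.87e-09, lower in NAc in all 10 mice). In Lmo4gt/+ it fell by 1.14 ± 0.12 (adjusted p = 9.66e-07, lower in all 9 mice).

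Htr3a, the channel subunit, had the largest regional difference among the members. It is known from cortex as a marker of a class of interneurons. It ran from 4.85 through 7.77 to 9.99 CPM in WT BLA and from 1.16 through 1.92 to 3.74 in WT NAc. In Lmo4gt/+ mice it ran from 6.07 through 9.83 to 12.4 CPM in BLA and from 0.188 through 1.7 to 2.2 in NAc. The lowest value was 4 reads in NAc library 149, the library with low Pvalb and Sst interneuron markers (18 CPM). That library also had the highest summed markers of Htr3a-type interneurons in NAc (629 CPM, next 428). Reln reached the highest level of this list in NAc (139 to 531 CPM), where Vip, Cck, Calb2 and Cnr1 reached at most 5.03, 52.5, 23.1 and 159. A high sum there can therefore come from Reln alone. The regions did not overlap, and Htr3a fell from BLA to NAc by 2.04 ± 0.13 on the log2 scale in WT (adjusted p = 1.82e-09) and by 2.82 ± 0.24 in Lmo4gt/+ (adjusted p = 2.48e-07). Of 5 measured markers of Htr3a-type interneurons, 4 were lower and 1 (Reln) was higher in NAc in each genotype. The part of cell make-up in this difference was not tested.

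The Gs-coupled receptors split. Htr6, which is known in striatum, ran from 4.45 through 5.91 to 7.13 CPM in WT BLA and from 6.89 through 9.05 to 12.1 in WT NAc. In Lmo4gt/+ mice it ran from 5.03 through 6.24 to 7.35 CPM in BLA and from 6.5 through 11.1 to 12.4 in NAc. Ranges overlapped slightly, but NAc was higher in 10 of 10 WT and 9 of 9 Lmo4gt/+ mice, a single direction that 36.4% and 32.6% of genes had. The log2 fold change was 0.60 ± 0.11 in WT (adjusted p = 0.000122) and 0.65 ± 0.12 in Lmo4gt/+ (adjusted p = 0.000416).

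Htr7 was lower in NAc. It ran from 4.03 through 7.67 to 13.8 CPM in WT BLA and from 2.09 through 4.38 to 11.3 in WT NAc, and from 5.23 through 9.06 to 12.5 and from 1.93 through 3.87 to 10.4 in Lmo4gt/+ mice. The ranges overlapped, and 1 mouse of each genotype had the higher level in NAc. Htr7 fell by 1.04 ± 0.33 on the log2 scale in WT (adjusted p = 0.0169) and by 1.08 ± 0.22 in Lmo4gt/+ (adjusted p = 0.000724). Without mice 129, 134 and 156 the WT difference was as large (-1.04) and the adjusted p was 0.0876.

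Htr4 was higher in NAc in WT mice by a narrow margin, at 4.8 to 7.66 CPM in BLA (median 6.34) and 4.67 to 21 in NAc (median 10.6). NAc was higher in 8 of 10 WT mice, and the log2 fold change was 0.58 ± 0.22 (adjusted p = 0.0374). In Lmo4gt/+ mice the levels were 4.67 to 9.88 CPM in BLA (median 6.31) and 5.6 to 11.5 in NAc (median 9.41), with a log2 fold change of 0.35 ± 0.17 that did not pass (adjusted p = 0.106). The WT call was lost when any of mice 129, 133, 134, 135, 139, 148, 156 and 158 was left out (log2 fold changes 0.46 to 0.61, adjusted p 0.0507 to 0.0939). Without mice 129, 134 and 156 together it was 0.50 (adjusted p = 0.191). The Lmo4gt/+ difference passed without mouse 159 (0.50, adjusted p = 0.00848) and without mice 122, 149 and 159 (0.63, adjusted p = 0.000891).

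The Gq receptors did not pass in either genotype. Htr2c ran from 141 through 194 to 238 CPM in WT BLA and from 74 through 200 to 229 in WT NAc, with a log2 fold change of -0.16 ± 0.15 and a 95% interval of -0.48 to 0.17 (adjusted p = 0.376). The lowest of these was NAc library 134, the library with high projection neuron markers. In Lmo4gt/+ mice Htr2c ran from 163 to 222 CPM in BLA and from 151 to 217 in NAc, and the difference was -0.12 ± 0.08 (interval -0.30 to 0.06, adjusted p = 0.236).

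Htr2a, the receptor of cortical pyramidal cells on which psychedelic drugs act, ran from 10.7 through 13.2 to 21 CPM in WT BLA and from 11.6 through 14.6 to 29.4 in WT NAc. NAc was higher in 9 of 10 WT mice, but the log2 fold change of 0.20 ± 0.10 missed the threshold (interval -0.0015 to 0.41, adjusted p = 0.0808). It passed with scaling by library size only (0.29, adjusted p = 0.0121), with limma voom (0.25, adjusted p = 0.0389) and without mouse 156 (0.25, adjusted p = 0.0294). In Lmo4gt/+ mice it ran from 8.61 to 19.8 CPM in BLA and from 9.68 to 26.8 in NAc, a difference of 0.16 ± 0.12 (adjusted p = 0.305).

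**Figure D3:**
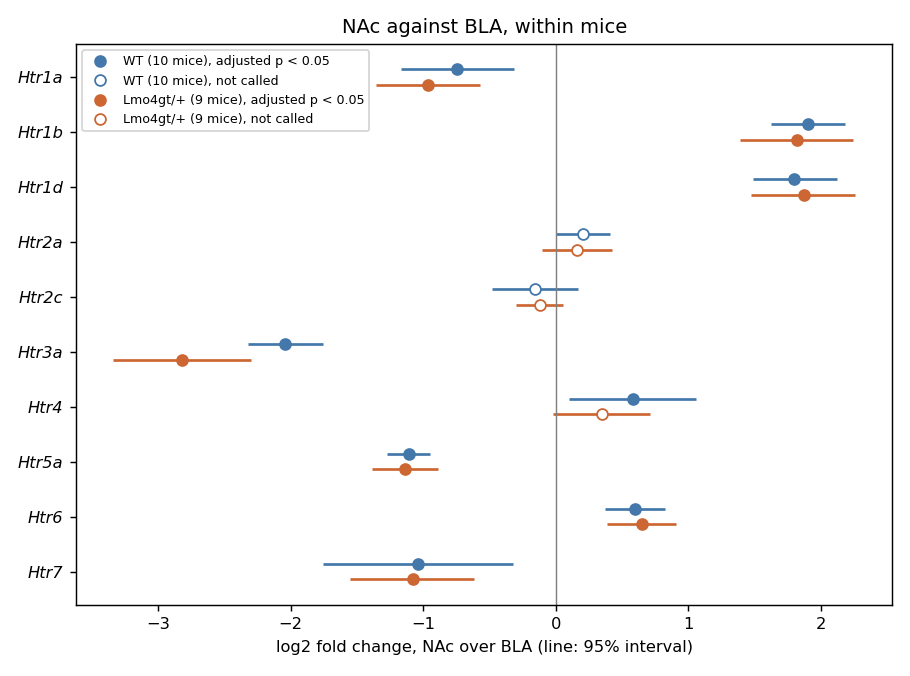
Log2 fold change of each member, NAc over BLA, with its 95% interval from edgeR, in WT (10 mice) and Lmo4gt/+ (9 mice); filled points passed an adjusted p of 0.05. Htr1b and Htr1d lie near 1.8 to 1.9 in both genotypes, Htr3a at -2.04 and -2.82, and the intervals of Htr2c span 0.

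Genes that act beside the receptors were called at shares to be read against those of all genes, 31.1% higher and 28.5% lower in WT NAc and 26.2% and 26.4% in Lmo4gt/+ NAc. Of 16 effectors (phospholipases C beta, adenylyl cyclases and potassium channels opened by G proteins), 3 were higher and 10 lower in WT NAc. Median log2 fold changes were -0.54 for these effectors and 0.04 over all genes. Adcy5, the main adenylyl cyclase of striatum and 1 of the medium spiny neuron markers used here, was higher by 2.06 ± 0.11 (adjusted p = 8.19e-09). Adcy6, another adenylyl cyclase, fell by 1.25 ± 0.11 (adjusted p = 6.69e-07). The potassium channel subunits Kcnj9 and Kcnj3 fell by 1.80 ± 0.12 (adjusted p = 9.85e-08) and 2.25 ± 0.21 (adjusted p = 6.43e-06). In Lmo4gt/+ mice 3 effectors were higher and 9 lower. Of 10 G protein alpha subunits, 2 were higher and 5 lower in WT NAc (median -0.15), and 3 were higher and 3 lower in Lmo4gt/+ NAc, beside 59.6% and 52.7% of all genes called. Gnal, the striatal counterpart of Gnas, rose from 209 to 836 CPM (log2 1.93 ± 0.11, adjusted p = 5.6e-09), while Gnas fell from 1153 to 562 CPM (by 1.15 ± 0.08, adjusted p = 3.33e-09). Gnaz, of the Gi/o class, fell from 112 to 78.2 CPM (adjusted p = 2.64e-09).

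Of 17 receptor partners and regulators, 2 were higher and 9 lower in each genotype (WT median -0.18), beside the same 59.6% and 52.7% of all genes. Mpdz, a scaffold that binds Htr2c, fell by 1.85 ± 0.08 (adjusted p = 1.56e-10), and Rgs19, which speeds the switching off of Gi/o proteins, fell by 0.92 ± 0.07 (adjusted p = 1.1e-08). Of genes named for their known tie to the members after their values were seen, S100a10 (p11), which binds Htr1b and Htr4, fell by 2.27 ± 0.21 (adjusted p = 2.34e-07) and averaged 2.19 CPM in WT NAc. Adar and Adarb1, the enzymes that edit Htr2c RNA, did not pass (-0.0043 ± 0.0403 and -0.01 ± 0.07, adjusted p = 0.934 and 0.902). Of 9 genes of serotonin synthesis, uptake and breakdown, 6 were tested, and 3 were higher and 2 lower in WT NAc (median 0.43). Ddc, the decarboxylase shared with dopamine synthesis, rose from 6.28 to 14.1 CPM (adjusted p = 8.55e-07), and Slc18a2, the vesicular monoamine transporter, was higher at only 1.17 CPM (adjusted p = 0.00548). Maoa, which breaks serotonin down, fell from 38.1 to 33.8 CPM (adjusted p = 0.00027), and Slc29a4, a low-affinity serotonin transporter, fell from 13.7 to 6.81 CPM (adjusted p = 0.00288). Tph1, Tph2 and Slc6a4, the enzymes of the first step of synthesis and the serotonin transporter, had too few reads to be tested (231, 248 and 54 over all 39 libraries).

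Libraries of a region differed in their receptor levels, and some of that spread went with markers of cell types. Between members, 0 of 90 pairs passed a test of correlation across the libraries of a region (45 pairs in each of 20 BLA and 19 NAc libraries, genotype means subtracted). The lowest adjusted p was 0.0749 in BLA and 0.054 in NAc by permutation test, which does not show that members vary independently. Each member was then set against the summed level of 9 lists of cell type markers, a family of 180 relations chosen after the data were seen, and 6 passed in BLA and 10 in NAc. Punch content and depth are shared by both measures in these relations.

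In NAc, Htr6 followed the medium spiny neuron markers (Pearson's r = 0.792, permutation p = 3e-05, Spearman's rho = 0.779, p = 0.00017, n = 19). The adjusted p of r was 0.0027, r was 0.826 without the 2 libraries farthest from the median, and 0.813 without libraries 122, 134 and 149. Htr5a followed the markers of Pvalb and Sst interneurons (r = 0.731, permutation p = 0.00011, rho = 0.772, p = 0.00014, adjusted p = 0.00396). That relation had r = 0.813 without the 2 farthest and 0.71 without the libraries that stood apart. Htr4 ran against endothelial markers (r = -0.751, permutation p = 0.00011, rho = -0.777, p = 0.00014, adjusted p = 0.00396), with r = -0.80 and -0.724 in the same checks.

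Htr1a was higher in NAc libraries with more Pvalb and Sst interneuron markers (r = 0.734, permutation p = 7e-05, rho = 0.716, p = 0.00091, adjusted p = 0.00396; r = 0.686 without the 2 farthest). In BLA the same relation had r = 0.70 (permutation p = 0.00064, rho = 0.728, p = 0.00046, adjusted p = 0.0105, n = 20). It had r = 0.622 without the 2 farthest (adjusted p = 0.0633), and the NAc relation had r = 0.587 without the libraries that stood apart (adjusted p = 0.101). Htr1a also fell with medium spiny neuron markers in NAc (r = -0.77, permutation p = 0.0002, rho = -0.684, p = 0.00167), which no longer passed without the 2 farthest (r = -0.662, adjusted p = 0.0554).

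In BLA, Htr1d rose with medium spiny neuron markers (r = 0.889, permutation p = 2e-05, rho = 0.66, p = 0.00193, adjusted p = 0.0027, n = 20; r = 0.865 without the 2 farthest). Its highest values, 7.13 CPM in WT library 129 and 5.82 in Lmo4gt/+ library 149, were in punches with high striatal markers. Without libraries 129, 149, 156 and 159 r was 0.654 and no longer passed (adjusted p = 0.0678, n = 16). In NAc the same relation had r = 0.729 (permutation p = 0.00014, rho = 0.626, p = 0.00472) and 0.55 without the 2 farthest, where it did not pass (adjusted p = 0.152). Without libraries 122, 134 and 149 it had r = 0.687 and passed (adjusted p = 0.0361). Htr2c was related to the choroid plexus list in NAc by r = 0.726 (permutation p = 0.00142, rho = 0.396, p = 0.0935), which rests on the libraries that stood apart: r was 0.0533 without libraries 122, 134 and 149. In NAc this list was mostly Clic6 (20.3 to 36 CPM) and Kl (3.13 to 17.8). Ttr was at most 3.84 CPM and at 0 in 8 of 19 libraries, so the list is a poor measure of choroid plexus there. The other 7 relations that passed had r between -0.742 and 0.711. Among them, Htr5a in NAc rose with projection neuron (r = 0.67) and fell with medium spiny neuron markers (r = -0.742). Without libraries 122, 134 and 149 neither passed (r = 0.292 and -0.482, adjusted p = 0.544 and 0.239). Htr1d with oligodendrocyte markers in BLA (r = 0.648) had r = 0.329 without libraries 129, 149, 156 and 159 (adjusted p = 0.503). In BLA, Htr5a with Htr3a-type interneuron markers and Htr7 with microglia and Pvalb and Sst interneuron markers still passed without those libraries. None of them passed without the 2 farthest libraries. There r fell from 0.711 to 0.531 for Htr5a (adjusted p = 0.152). For Htr7 it fell from 0.688 to 0.28 with microglia (adjusted p = 0.597) and from 0.709 to 0.574 with Pvalb and Sst interneuron markers (adjusted p = 0.0964).

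**Figure D4:**
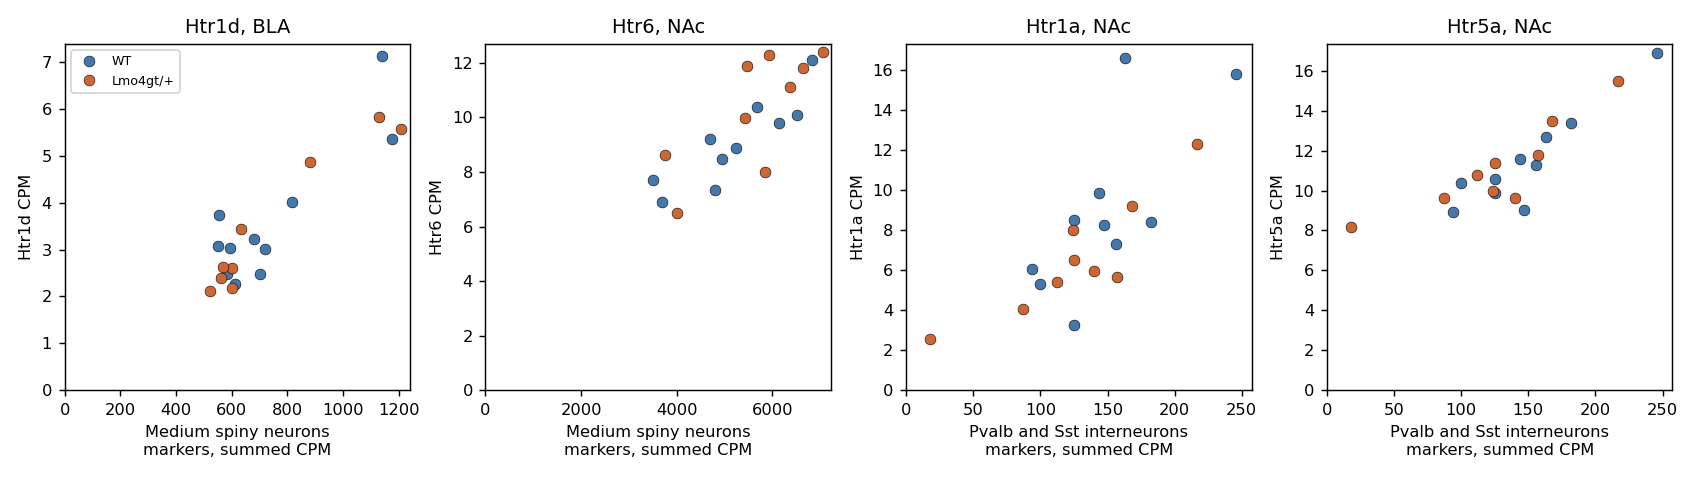
CPM of 4 members against the summed CPM of cell type markers, 1 point per library, WT and Lmo4gt/+ in different colours, linear axes from 0. Htr1d in BLA is highest in the libraries with the most medium spiny neuron markers, and Htr6, Htr1a and Htr5a in NAc rise with the markers on their axes (r = 0.792, 0.734 and 0.731 on the log2 scale with genotype means subtracted).

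The genes most like each member across libraries of a region, by Pearson's r of genotype-centred log2 CPM, are given as a description with no test. In BLA (20 libraries, 12294 genes searched) the closest to Htr1d was Gnal (0.94), to Htr2c Ncam2 (0.899), to Htr7 Zdhhc22 (0.895) and to Htr2a Atp2c1 (0.847). Htr6 had no gene above 0.708 there. In NAc (19 libraries, 12353 genes searched) the closest to Htr1a was Elavl2 (0.96), to Htr1b Dpy19l3 (0.934), to Htr3a Fam100b (0.931), to Htr7 Zic1 (0.925), to Htr2c Shisa9 (0.924) and to Htr5a Sult4a1 (0.922). These libraries share punch content and depth. The search was not repeated with libraries left out. A high r may rest on single libraries, such as NAc library 149 for Htr3a (0.188 CPM) or 134 for Htr2c (74 CPM).

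The series asked which genes differ between Lmo4gt/+ and WT mice, and no serotonin receptor gene passed that test in either region. In BLA, 0 of 10 members were called, against 1 of 17087 genes (0.00585%, Lmo4 itself), and in NAc 0 of 10 against 1 of 16999 (0.00588%, again Lmo4). At an unadjusted p under 0.05 there were 703 genes in BLA (4.11%), of which Htr3a was the 1 member, and 454 in NAc (2.67%) with no member. DESeq2 and limma voom also called 0 members in each region. Of the other receptors and the G proteins, effectors, partners and serotonin handling genes, 0 of 51 tested in BLA and 0 of 50 in NAc were called by edgeR. At an unadjusted p under 0.05 there were 2 (Plcb4 and Mpdz) and 1 (Maob).

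Htr3a was the member with the smallest genotype p. It averaged 7.7 ± 1.68 CPM (SD, n = 11) in WT BLA and 10.2 ± 2.05 (n = 9) in Lmo4gt/+ BLA, and 5 of the Lmo4gt/+ values lay inside the WT range. The log2 fold change was 0.41 ± 0.12 with a 95% interval of 0.15 to 0.66, an unadjusted edgeR p of 0.0028 and an adjusted p of 0.998. It ranked 38 by p among all genes tested. In NAc the means were 2.04 ± 0.703 and 1.57 ± 0.641 CPM and the fold change was -0.35 ± 0.28 (interval -0.92 to 0.22, adjusted p = 1). The test of the difference between the regions gave an interaction of -0.76 ± 0.27 (edgeR p = 0.00857, adjusted p = 1), where 0 of 18325 genes were called by edgeR, DESeq2 or limma voom and 2.96% had an unadjusted edgeR p under 0.05.

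For the other members, the intervals give the range of genotype differences that the data allow. In BLA they were narrow for Htr2c (0.06, interval -0.08 to 0.19 on the log2 scale) and Htr5a (0.01, -0.13 to 0.15), and wide for Htr1d (-0.04, -0.51 to 0.43). Htr1b (0.02, -0.26 to 0.30), Htr1a (-0.17, -0.38 to 0.05), Htr2a (-0.17, -0.44 to 0.11), Htr4 (0.06, -0.18 to 0.30), Htr6 (0.12, -0.09 to 0.33) and Htr7 (0.07, -0.25 to 0.39) lay between. In NAc the widest intervals were those of Htr7 (0.05, -0.62 to 0.71) and Htr1a (-0.42, -0.98 to 0.15), and the narrowest were those of Htr5a (-0.02, -0.27 to 0.23) and Htr1d (0.02, -0.24 to 0.28). Htr1b (0.01, -0.37 to 0.39), Htr2c (0.09, -0.18 to 0.36), Htr2a (-0.25, -0.69 to 0.19), Htr4 (-0.29, -0.78 to 0.20) and Htr6 (0.21, -0.07 to 0.50) all included 0. A p above the threshold does not show that a gene was equal in the genotypes.

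**Figure D5:**
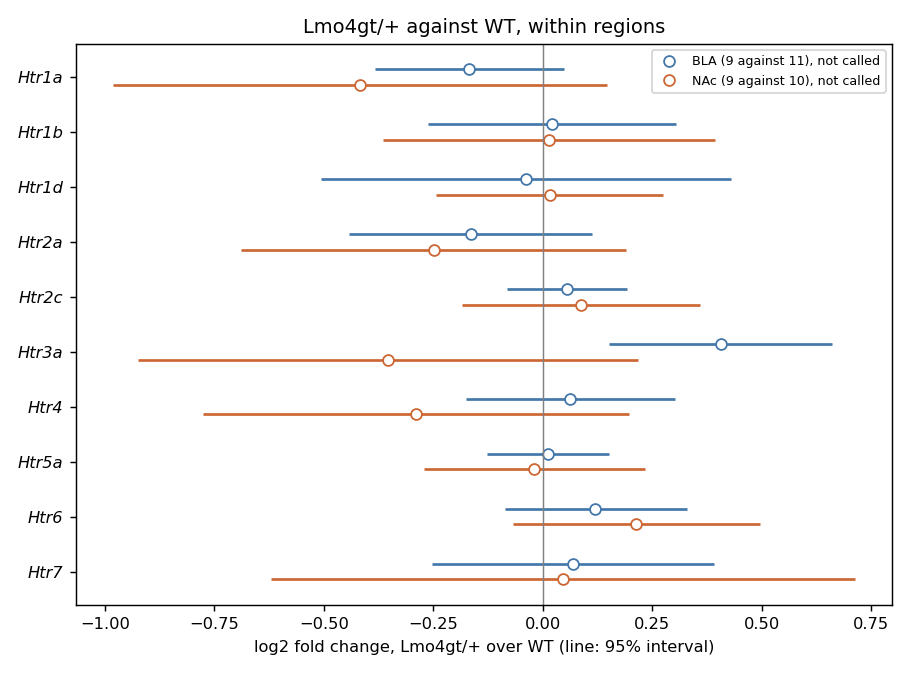
Log2 fold change of each member, Lmo4gt/+ over WT, with its 95% interval from edgeR, in BLA (9 against 11 libraries) and NAc (9 against 10); open points did not pass. Every interval includes 0 except that of Htr3a in BLA (0.15 to 0.66).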

How the data were processed

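Raw read counts per Ensembl gene were deposited, 1 file for each of 39 libraries. The submitters' processing notes name build mm9 and the tools MultiQC 1.7, HTSeq 0.11.1, HISAT2 and DESeq2; no source used here gives strand use or annotation. Rows that name no gene (24.7% to 38.1% of reads) were left out. Coordinates and lengths came from GENCODE vM1 (NCBIM37). A symbol was found for 32708 identifiers, with 98.3% of gene counts. Samples were grouped by title.

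Tests used edgeR 4.0.16 (R 4.3.3) on all genes: TMM, filterByExpr with a minimum count of 10, robust quasi-likelihood F tests (two-sided), Benjamini-Hochberg, 0.05. Region and interaction fits kept the mouse as a block, since same-numbered BLA and NAc libraries are punches of the same animal by their titles. As a check, deviations over 14785 genes correlated by a median of 0.0524 for the same mouse and -0.00592 for different mice. Of 19 pairs, 7 exceeded 0.1. Only 7 of 19 BLA libraries correlated most with the NAc library of their own number, among NAc libraries of that genotype. The pairing therefore rests on the titles. The fits were tested on simulated data. Correlations used log2(CPM + 0.1) with 100000 resamples (SciPy 1.17.1). Alternatives were DESeq2 1.42.0, limma 3.58.1 voom, other scalings, no filter, other sample sets and left-out libraries. Named genes were all members, the other receptors, Lmo4, and up to 4 genes per list with the smallest p; S100a10, Adar, Adarb1 and genes without enough reads to test were named outside this rule, after their values were seen. The members, lists and tests were chosen with earlier results of these data known. The symbols Drd1, Ndnf and Lamp5 had no match.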

Additional observations from a re-analysis of the deposited data

Results flagged for a closer look

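In groups of 9 or 10 libraries, a library was singled out when its gap to the nearest value exceeded Dixon's 95% limit for its group's range. This applied to 6 of 30 groups examined, where chance gives about 1 in 20; the 11 WT BLA libraries were not examined. In WT NAc, Htr1b was high in library 133 (154 CPM, next 104). Htr2c was low in library 134 (74 CPM, next 176), whose projection neuron markers were the highest of the NAc libraries (1250 CPM). Htr3a was high in library 160 (3.74 CPM, next 2.42) and Htr7 was high in library 139 (11.3 CPM, next 5.65). In Lmo4gt/+ NAc, Htr1d was low in library 122 (6.71 CPM, next 11.8), which also had high projection neuron markers (795 CPM), and Htr2a was high in library 157 (26.8 CPM, next 16.5). The part of punch content in these values was not tested.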

How the results depend on the processing

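Of 1160 alternative values for single members, 1054 kept their direction and their side of the threshold, 11 no longer passed, 5 newly passed and 90 changed sign. The 90 were genotype differences or interactions that passed in neither setting. The 16 that passed in 1 setting only are the values of Htr4, Htr7 and Htr2a given above, and Htr4 in WT mice with no filter on low counts (0.55, adjusted p = 0.127). The counts of members called by genotype stayed at 0 in both regions under every setting run. All genes called by genotype were 2 in place of 1 in each region with no filter on low counts and with all 39 libraries in 1 model. With no replicate block, region calls covered 5225 higher and 4675 lower genes in WT and 4638 and 4457 in Lmo4gt/+, and no call of a member changed. Scaling by library size only moved the share of higher calls among called genes from 52.2% to 62.7% in WT and from 49.8% to 59.3% in Lmo4gt/+. The per-length order kept fewer ranks under other measures: 7 of 10 members held their rank with the longest transcript and 8 with medians in Lmo4gt/+ BLA, 8 with medians in WT BLA, and 8 and 6 in Lmo4gt/+ NAc. Sign changes in the log2 genotype difference in BLA were Htr1d at 0.152 with a component of the cell type markers as covariate, and Htr7 at -0.0041, Htr4 at -0.057 and Htr5a at -0.0069 without BLA libraries 129, 149, 156 and 159. In NAc they were Htr1b and Htr1d at -0.026 and -0.0153 by library size only, at -0.0294 and -0.016 with limma voom, and at -0.0631 and -0.0107 with the marker component. Without NAc libraries 122, 134 and 149, Htr5a was at 0.0191 and Htr1b at -0.0085. The interactions of Htr7, Htr4 and Htr6 were 0.0673, 0.14 and -0.0818 without mice 122, 129, 134, 149, 156 and 159. Leaving out single libraries gave BLA differences of -0.0132 to 0.165 for Htr7, -0.0234 to 0.115 for Htr4, -0.0207 to 0.0466 for Htr5a, -0.0311 to 0.0943 for Htr1b and -0.161 to 0.106 for Htr1d. In NAc the ranges were -0.174 to 0.294 for Htr7, -0.0889 to 0.0684 for Htr5a, -0.0041 to 0.129 for Htr2c, -0.0872 to 0.126 for Htr1b and -0.0397 to 0.101 for Htr1d. Interactions without single mice ran from -0.171 to 0.221 for Htr7, -0.0046 to 0.155 for Htr6, -0.108 to 0.0751 for Htr2a, -0.114 to 0.0462 for Htr5a, -0.0835 to 0.111 for Htr2c, -0.148 to 0.0596 for Htr1b and -0.0408 to 0.167 for Htr1d. The interaction of Htr3a ranged from -0.87 to -0.59 with single mice left out, a setting added after the data were seen. The cause of these changes was not tested. Member pairs that passed numbered 0 with and without the 2 farthest libraries. Reads carry no molecular identifiers, and Htr3a in NAc rests on as few as 4 reads.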

Other observations

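Htr1f, a Gi/o receptor gene that is not among the 10, was also lower in NAc. It ran from 4.78 to 10.7 CPM in WT BLA and from 2.53 to 6.13 in WT NAc, falling within mice by 0.999 ± 0.148 on the log2 scale (edgeR, adjusted p = 1.93e-05, lower in all 10 mice). In Lmo4gt/+ mice it fell by 0.62 ± 0.17 (adjusted p = 0.00707, higher in NAc in 2 of 9 mice). Htr5b was tested across regions in Lmo4gt/+ mice, where it fell by 2.91 ± 0.54 (adjusted p = 0.000331) from 0.879 to 0.154 CPM. The trapped gene itself was lower in NAc than in BLA in WT mice, by 0.94 ± 0.07 (adjusted p = 7.57e-09).

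Promoters of the members differed in base composition. The 250 bases before the start of Htr7 held 82% G and C, against a median of 52.4% over 32851 windows and 50.4% for Htr1a. The cyclic AMP response element TGACGTCA occurred in 0 of the 10 member windows and in 1.55% of all windows. The E-box CANNTG occurred in 5 of 10 member windows and in 66.2% of all. Each motif was searched on both strands.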
